A study of Mus musculus with 36 samples.

Results

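Myc, Ccnd1, Hbegf, Hgf, Met, Egfr, Errfi1 and Ccnl1 are 8 genes of the growth factor and early gene response with which an injured liver prepares to replace lost cells, and their mRNA was followed here in mice given acetaminophen. They were taken by gene symbol, as the probe sets mapped to exactly 1 of these symbols. That gave 21 of the 45101 probe sets on the array and 8 of the 18193 genes that had a probe set with a single symbol. All 8 genes and all 21 probe sets passed the filter on low signals, which 13981 genes passed in all. Where a gene had several probe sets, the one with the highest mean log2 signal stood for it, and the others are given beside it.

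Livers of 36 mice from 4 strains, labelled SJL, SMJ, DBA and C57, had been put on Affymetrix arrays, 1 mouse to an array. The series calls SJL resistant to acetaminophen injury and the other 3 strains, which it also writes as SmJ, DBA/2 and C57B6, sensitive. All mice were fasted overnight to lower liver glutathione, and the 12 groups of 3 mice were each strain before dosing (0 h) and at 3 h and 6 h after 1 intraperitoneal injection of acetaminophen at 300 mg/kg. Mice are named here by strain and the number in their label, as DBA_113. No transgene or other agent was named, and the sources used here give neither age nor sex. No group given vehicle alone was analysed here, so the drug, the injection and the time of day cannot be told apart.

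An overdose of acetaminophen kills hepatocytes around the central veins through a reactive metabolite. In textbook accounts of liver regeneration, cytokines such as tumour necrosis factor and interleukin-6 prime resting hepatocytes, and growth factors then drive them on through the EGF receptor and the HGF receptor MET. MYC is an immediate early transcription factor of this response, cyclin D1 carries cells through G1, and ERRFI1 (MIG6) is a feedback protein that binds active EGF receptor and restrains it.

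The arrays had been scaled alike, with a trimmed mean signal of 150 on each. Log2 signals of mice in 1 group correlated at 0.914 to 0.963. The 3'/5' signal ratio of actin, a measure of RNA quality, was lower after dosing in 3 strains: it was 1.69 to 1.82 in DBA and 1.51 to 1.67 in SMJ at 0 h, and 1.38 to 1.53 and 1.28 to 1.41 at 6 h. In SJL it was 1.59 to 1.87 at 0 h and 1.41 to 1.51 at 3 h, and in C57 the times overlapped. Its part in the changes below was not tested. The summed signal of 5 hepatocyte markers lay between 50989 and 111515 in every mouse. The sum of 4 exocrine pancreas markers ran from 99.0 to 49726 at 0 h, from 73.1 to 67748 at 3 h and from 97.5 to 56720 at 6 h. By limma 0 of the 4 were called in any change with time. In SJL every sum at 6 h (at most 5510) lay below every sum at 0 h (at least 18175). By 6 h the 4 markers changed by -3.93 to -5.14 in SJL and by 3.61 to 4.82 in C57. With SEs of 2.30 to 3.02 there, the lack of a call does not show that a change was absent. With the pancreas sum as a covariate, an alternative added after its spread was seen, no call of any of the 8 genes changed in any of the 17 comparisons.

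Averaged over the 4 strains, Myc, Ccnl1, Hbegf, Errfi1 and Ccnd1 rose and Met fell between 0 h and 6 h. Among all genes tested 12.5% were called higher and 20.1% lower in this comparison, against 5 and 1 of the 8, so the members that fell were no more frequent than lower genes over the array. The 8 were chosen with earlier results of these data known, so a larger share of calls among them is not a test. By 3 h, Myc, Ccnl1 and Errfi1 had risen and none had fallen, where 3.10% of all genes were called higher and 3.96% lower. Scaling each array by its 75th percentile turned the split over all genes at 3 h from 434 higher and 553 lower to 579 and 381, and moved no call of the 8. From 3 h to 6 h, Myc, Hbegf and Ccnl1 rose further, against 6.92% of genes higher and 9.53% lower. The median log2 change of the 8 genes was 0.20 at 3 h and 0.50 at 6 h, beside medians of -0.03 and -0.05 over all genes tested. A call here is an adjusted p under 0.05 from limma over all genes tested, and each p rests on 3 mice per group. In whole liver, a change in RNA per cell and a change in the number of cells of a type cannot be told apart.

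Markers of other cells also moved by 6 h. Of 8 neutrophil markers 5 rose, and their summed signal ran from 133 to 900 over the mice at 0 h, from 152 to 2370 at 3 h and from 463 to 2580 at 6 h. Of 7 endothelial markers 5 rose, with sums of 1963 to 3465 at 0 h, 2039 to 3099 at 3 h and 2228 to 4475 at 6 h. In C57 these sums were 2528 to 3465 at 0 h and 4012 to 4475 at 6 h. Clec4g rose by 0.96 ± 0.15 in C57 (adjusted p = 7.54e-05 by limma) and was called in no other strain at 6 h. Stellate sums in C57 were 3472 to 4118 at 0 h and 5342 to 6410 at 6 h. In DBA the 0 h and 6 h mice were apart in both sums as well. Single markers did not all follow the sums. The endothelial marker Kdr was called lower in DBA (-0.80, adjusted p = 0.022 by limma) but higher in C57 (0.87, 0.0144). Pecam1 was called higher in both strains, and in DBA Lyve1 and Cdh5 were too. Among stellate markers only Reln and Dcn were called in DBA or C57 at 6 h, both higher. Of 7 Kupffer cell and macrophage markers 1 rose, with sums of 2985 to 6066, 2788 to 5794 and 3411 to 5303 at the 3 times, and of 8 stellate cell markers 2 rose and 2 fell. Of 5 hepatocyte markers 4 rose and of 4 bile duct markers 1 rose. By limma, averaged over strains, 0 of 5 lymphocyte and 0 of 3 erythroid markers differed from 0 h at 3 h or at 6 h. In those comparisons 0 of either had an unadjusted p under 0.05. Between 3 h and 6 h the erythroid markers Alas2 (0.67, adjusted p = 0.0156 by limma) and Slc4a1 (1.06, 0.017) rose. In SJL at 3 h, 5 of the 7 Kupffer cell and macrophage markers fell, with sums of 5049 to 6066 at 0 h and 3303 to 4308 at 3 h. There Lrat (-1.03, adjusted p = 0.0216 by limma) and Pdgfrb (-0.99, 0.00204) were the only stellate markers called, of 8, and both fell. Kdr (-1.01, 0.00526) was the only one of 7 endothelial markers called, and it also fell. Mmp8 (2.29, 0.0232), alone of 8 neutrophil markers, and Sox9 (1.05, 0.0256), alone of 4 bile duct markers, were called higher. Stellate sums went from 4276 to 4953 down to 3196 to 4194, and neutrophil sums from 379 to 900 up to 987 to 2370. The part of any of these cells in the changes below was not tested.

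**Figure D1:**
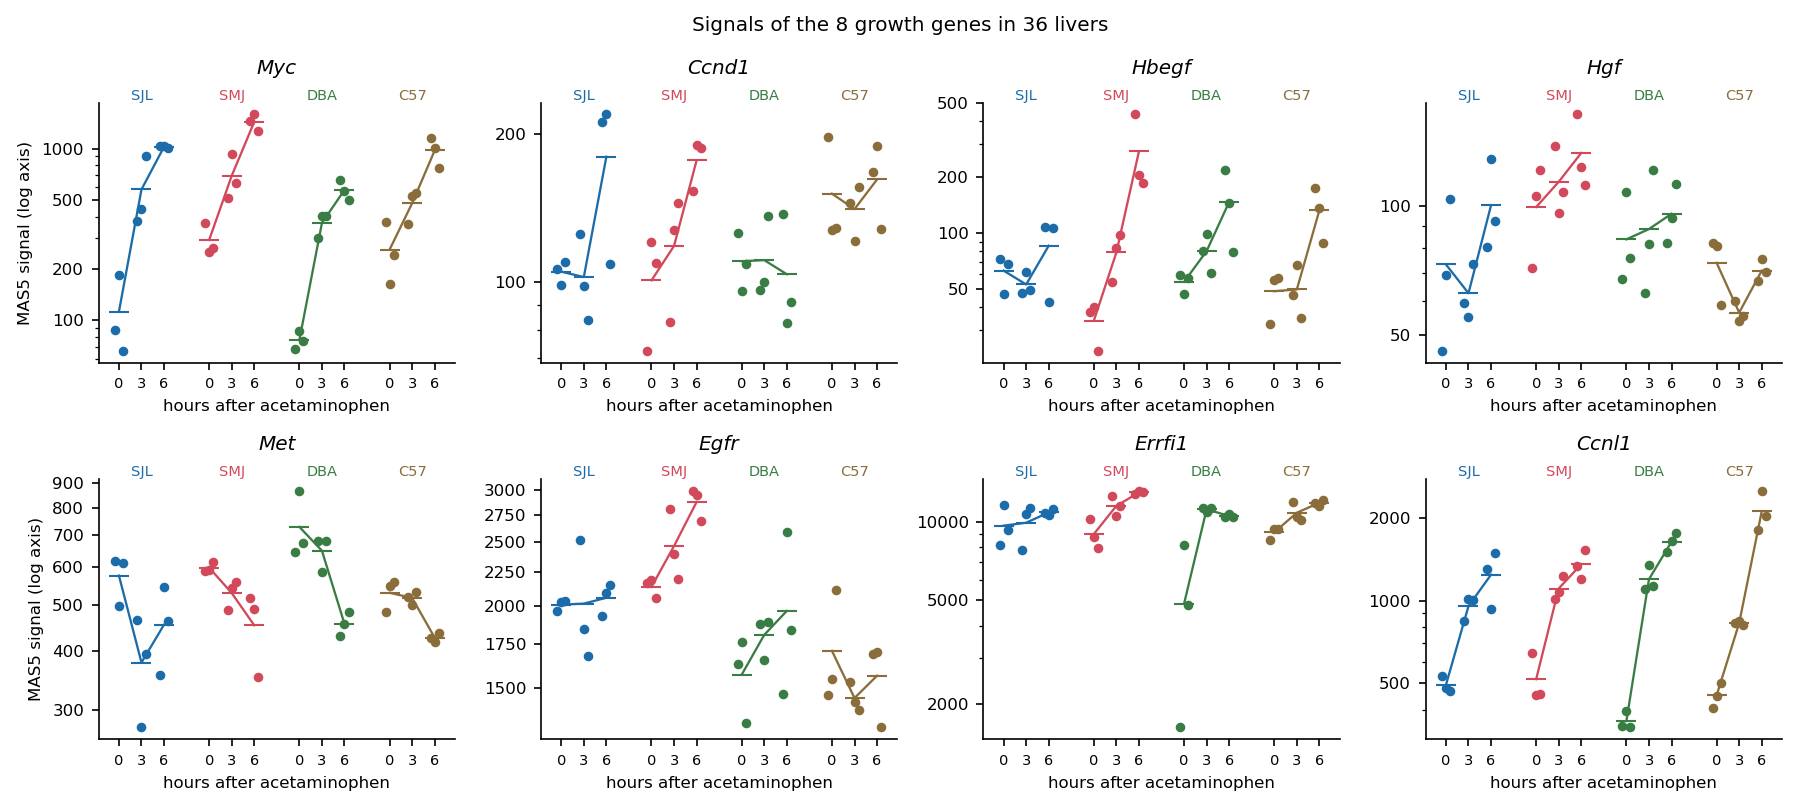
MAS5 signal (log axis) of each of the 8 genes in 36 livers, by strain and hours after acetaminophen; points are mice, short bars are means of 3 mice, and lines join the means. Myc and Ccnl1 climbed in all 4 strains, Hbegf reached a mean of 275 in SMJ at 6 h, and 1 DBA mouse at 0 h stood at 1627 for Errfi1.

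Within strains, more of these genes were called at 6 h than at 3 h in all but SJL. In SJL, 2 rose and 1 fell at 3 h (Myc and Ccnl1; Met), where 4.48% of all genes rose and 5.45% fell, and 2 rose at 6 h (Myc and Ccnl1), beside 3.71% higher and 3.31% lower. In SMJ, 1 rose at 3 h (Ccnl1; background 0.165% higher, 0.00715% lower) and 4 at 6 h (Myc, Ccnd1, Hbegf and Ccnl1; 8.58% higher, 12.3% lower). In DBA, 3 rose at 3 h (Myc, Errfi1 and Ccnl1; 1.09% higher, 0.415% lower), while at 6 h 4 rose (these and Hbegf) and Met fell (4.81% higher, 7.57% lower). The 75th percentile scaling turned the split over all genes in DBA at 6 h from 672 higher and 1059 lower to 907 and 653, and in SMJ at 6 h from 1199 and 1722 to 1398 and 1355. In C57, 1 rose at 3 h (Ccnl1; 0.200% higher, 0.0787% lower) and 3 at 6 h (Myc, Hbegf and Ccnl1; 4.24% higher, 5.79% lower). Ccnl1 alone among the 8 was called in every strain at both times. When each strain comparison was fitted to its own 6 arrays, 12 of these calls were lost (adjusted p 0.0513 to 0.421). They were Myc, Met and Ccnl1 at 3 h in SJL, Ccnl1 at 3 h and Ccnd1 at 6 h in SMJ, Errfi1 at 3 h and Hbegf, Met and Errfi1 at 6 h in DBA, and Ccnl1 at 3 h and Myc and Hbegf at 6 h in C57.

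Strains were also compared with each other. Before dosing, Myc and Errfi1 differed between strains, 2 of 8 where 26.1% of all genes did, so that share is that of the array as a whole. The response at 3 h differed between strains for 0 of the 8 by limma's moderated F test, with 3 at an unadjusted p under 0.05, while 1.97% of all genes were called. At 6 h the response of Hbegf and Ccnl1 differed between strains, 2 of 8 beside 5.25% of all genes. Set against the average of SMJ, DBA and C57, SJL gave 0 calls among the 8 before dosing, 0 in the 3 h response and 0 in the 6 h response, with 1, 2 and 3 at an unadjusted p under 0.05. Over all genes, SJL was called higher in 6.27% and lower in 5.81% before dosing, 2.21% and 2.40% in the 3 h response, and 0.315% and 0.0787% in the 6 h response. The split before dosing, 877 higher and 812 lower, was 812 and 851 under the 75th percentile scaling. Calls in the 3 h response appeared for Myc without SJL_2 at 0 h (1.31, adjusted p = 0.0454) and for Met without SJL_39 at 3 h (-0.67, 0.044), and at 0 h for Errfi1 without DBA_114 (0.65, 0.0214). Other probe sets of Hbegf and Egfr gave calls for SJL and are described with those genes.

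**Figure D2:**
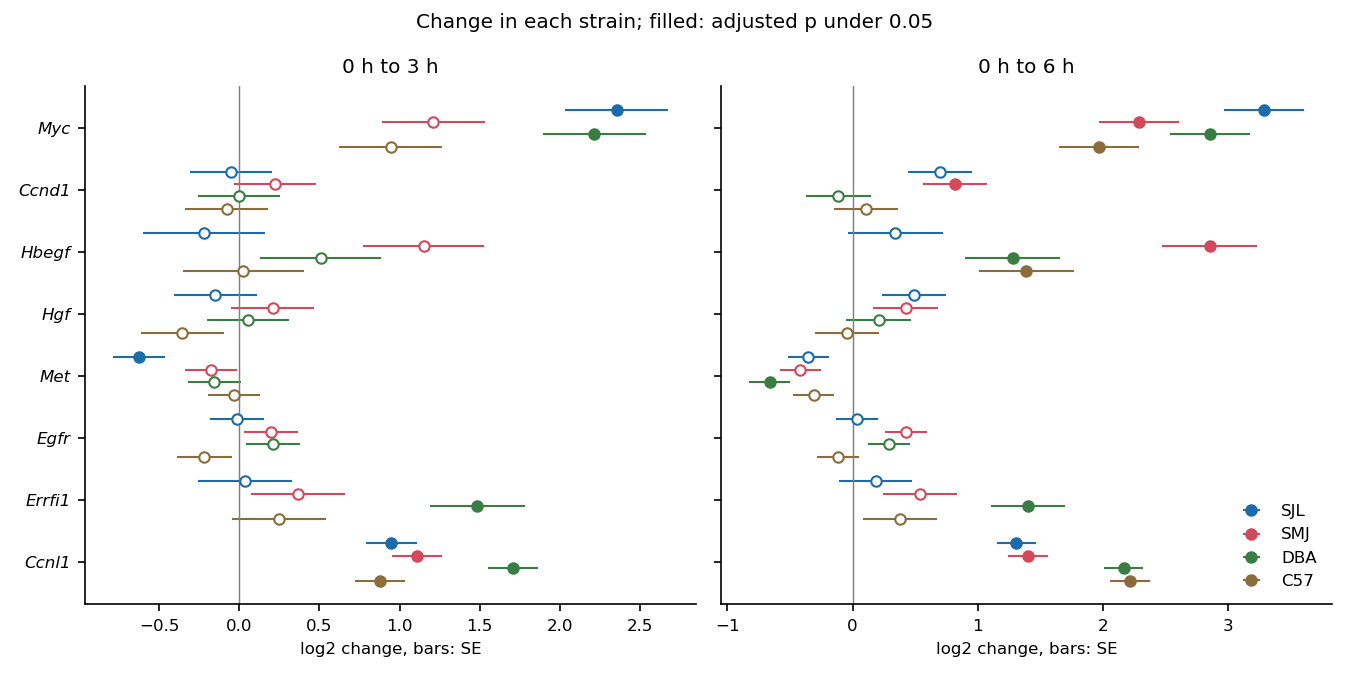
Log2 change of each gene from 0 h to 3 h (left) and from 0 h to 6 h (right) in each strain, with bars of 1 SE from the limma fit; filled points have an adjusted p under 0.05. At 6 h Hbegf spread from 0.34 in SJL to 2.85 in SMJ, and Myc was filled in all 4 strains.

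Hbegf encodes heparin-binding EGF-like growth factor, a ligand of the EGF receptor that is shed from the cell surface. In SMJ its signal (probe set 1418349_at) was 23.3, 37.8 and 40.2 at 0 h, 54.8, 83.3 and 97.9 at 3 h, and 186, 204 and 434 at 6 h. The 3 times did not overlap, and even the lowest mouse at 6 h was far above the highest at 0 h. Erythroid and bile duct markers moved in SMJ at 6 h as well. The erythroid marker Alas2 rose by 2.82 ± 0.38 (adjusted p = 8.39e-06 by limma), 1 of 3 called. Slc4a1 (1.31, adjusted p = 0.137) and the globin gene Hba-a1 (-0.40, 0.793) were not called. The sum of the 3 went from 154 to 172 at 0 h to 507 to 2216 at 6 h. The highest sum was that of SMJ_101, the mouse with the highest Hbegf. Of 4 bile duct markers 3 rose (Krt7, Krt19 and Sox9), with sums of 169.6 to 205 at 0 h and 469 to 1088 at 6 h, the highest in SMJ_103. Of 8 neutrophil markers 4 rose there, and SMJ_101 also had the highest neutrophil sum of the SMJ mice at 6 h (2223). The part of these cells in the Hbegf values was not tested. In SJL the mice stood at 47.0, 68.5 and 72.9 at 0 h, 47.6, 49.4 and 61.7 at 3 h, and 42.8, 106 and 107 at 6 h, so 1 mouse at 6 h lay below all mice at 0 h. In DBA the signal went from 47.3, 57.02 and 59.6 through 60.9, 80.4 and 98.7 to 79.4, 145 and 217, and in C57 from 32.3, 56.2 and 57.6 through 35.1, 46.4 and 67.7 to 87.9, 136 and 175. Every DBA and C57 mouse at 6 h was above every mouse of its strain at 0 h.

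As the mean of 4 strains, Hbegf rose by 1.46 ± 0.19 (log2, SE) at 6 h (adjusted p = 1.01e-06), and its change of 0.37 ± 0.19 at 3 h did not pass (adjusted p = 0.299), though with the mean of both probe sets it was 0.74 (0.00845). By strain, the 6 h change was 2.85 ± 0.38 in SMJ (adjusted p = 6.31e-06), 1.39 ± 0.38 in C57 (0.0181), 1.28 ± 0.38 in DBA (0.0263) and 0.34 ± 0.38 in SJL (0.692). The test that these 4 changes differ gave F = 7.48 (adjusted p = 0.0274). That call was lost when 1 of 5 mice was left out: SJL_1 or SJL_4 at 0 h (adjusted p = 0.057 and 0.0539), SJL_45 at 6 h (0.0574), SMJ_58 at 0 h (0.0834) or SMJ_101 at 6 h (0.0887). A fit of 0 h and 6 h arrays alone gave 0.0647, and the alternatives ranged from 0.00603 to that value. The DBA call was lost without any of the 3 DBA mice at 0 h or without DBA_166 or DBA_168 at 6 h (adjusted p 0.0551 to 0.159), and the C57 call without C57_180, C57_233 or C57_236 (0.0654 to 0.104).

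The second Hbegf probe set, 1418350_at, moved further. Its signal in SMJ was 11.3, 14.3 and 19.3 at 0 h and 236.98, 341 and 607 at 6 h, and in SJL 34.0, 47.5 and 52.0 at 0 h and 84.7, 85.5 and 118 at 6 h. Here the groups at 0 h and 6 h were apart in SJL as well. It rose by 1.11 ± 0.22 at 3 h (adjusted p = 0.0015 over all probe sets) and by 2.75 ± 0.22 at 6 h (2.61e-10) as the mean of 4 strains. The 6 h change was 4.40 ± 0.43 in SMJ, 3.01 ± 0.43 in C57, 2.54 ± 0.43 in DBA and 1.07 ± 0.43 in SJL, of which that in SJL did not pass (adjusted p = 0.157). For this probe set the SJL response at 6 h was below the mean of the other strains, by -2.25 ± 0.50 (adjusted p = 0.0415), and its level in SJL at 0 h was above theirs by 1.16 ± 0.35 (0.0345). For 1418349_at the same 2 differences were -1.50 ± 0.44 (adjusted p = 0.135) and 0.47 ± 0.31 (0.377). With the mean of both probe sets the first was -1.87 (0.0393). For 1418350_at all SMJ signals at 0 h lay below 30.8, the level of the filter on low signals. Its 0 h mean over strains, 26.2, did too, while the SJL signals at 0 h lay above that level. How far its SMJ change and its SJL differences depend on these low signals was not tested.

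Hgf encodes hepatocyte growth factor, the ligand of MET, which in liver is made by cells other than hepatocytes. Its signal (1425379_at) ranged from 46.0 to 121 over the 12 mice at 0 h, with a median of 78.1, from 53.9 to 138 with a median of 68.0 at 3 h, and from 66.8 to 164 with a median of 92.9 at 6 h. At 3 h and at 6 h the mice overlapped with those at 0 h in every strain, while 3 h and 6 h were apart in SJL and in C57. Group means ran from 56.5 ± 3.21 (SD, n = 3) in C57 at 3 h to 133 ± 27.01 in SMJ at 6 h, and neighbours in that order overlapped. The changes of -0.06 ± 0.13 at 3 h and 0.27 ± 0.13 at 6 h did not pass (adjusted p = 0.863 and 0.116). Without SJL_4 at 0 h the 6 h change was 0.34 (adjusted p = 0.035). Of 2 further probe sets, 1451866_a_at rose by 0.84 ± 0.22 at 6 h (adjusted p = 0.00434) and 1442884_at changed by 0.29 ± 0.18 (0.228); the mean of all 3 probe sets rose by 0.47 (adjusted p = 0.001) at 6 h, by 0.69 in SJL alone (0.0463), and by 0.49 from 3 h to 6 h (0.00214). That last change, 0.33 ± 0.13 for 1425379_at (0.0804), also passed for it without DBA_160 (0.39, 0.0339). At 0 h 1451866_a_at also differed between strains (F = 8.96, adjusted p = 0.00329). Its signals ran from 3.88, 26.9995 and 41.95 in C57 to 54.4, 77.0 and 103.2 in SMJ. The C57 signals of 3.88 and 26.9995 lay below 30.8, the level of the filter on low signals. Whether this F and the 6 h rise of 0.84 rest on the mouse at 3.88 was not tested.

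Egfr encodes the EGF receptor, which binds HB-EGF, and is abundant on hepatocytes. The probe set that stands for it, 1460420_a_at, ranged from 1327 to 2191 over the mice at 0 h, from 1388 to 2804 at 3 h and from 1309 to 2985 at 6 h, and no change passed in any strain. SMJ came nearest, from 2052, 2165 and 2191 at 0 h to 2691, 2942 and 2985 at 6 h, a change of 0.43 ± 0.17 (adjusted p = 0.0768). The 75th percentile scaling took it to 0.49 (adjusted p = 0.0487), and leaving out DBA_168 at 6 h to an adjusted p of 0.0437. As the mean of 4 strains the change was 0.04 ± 0.08 at 3 h and 0.16 ± 0.08 at 6 h (adjusted p = 0.854 and 0.165).

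The other 6 Egfr probe sets did not all follow it. In SJL, 1451530_at stood at 207, 207 and 345 at 0 h, 487, 801 and 1287 at 3 h, and 349, 417 and 510 at 6 h. All SJL mice at 3 h lay above all those at 0 h, and the 6 h mice lay above 0 h too but mostly below 3 h. This probe set rose by 1.68 ± 0.32 in SJL at 3 h (adjusted p = 0.00104 over all probe sets), and its 3 h response differed between strains (F = 11.8, adjusted p = 0.0111). Its SJL response at 3 h was 2.15 ± 0.36 above the mean of the other strains (adjusted p = 0.00142), and its SJL level at 0 h was lower than theirs, at -1.15 ± 0.26 (0.00406). A second, 1424932_at, also rose in SJL at 3 h, by 1.14 ± 0.36 (0.0476). In C57 at 6 h it was lower, at -1.16 ± 0.36 (0.041), as was 1435888_at, at -1.75 ± 0.39 (0.00475).

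In C57 the signals of 1435888_at were 1422, 1599 and 3239 at 0 h, 1137, 1198 and 1335 at 3 h, and 457, 472 and 895 at 6 h, with no overlap between the 3 times. In SMJ at 6 h, 1451530_at rose by 0.91 ± 0.32 (adjusted p = 0.0447) and 1432647_at by 0.86 ± 0.28 (0.0317). Probe set 1457563_at, above the filter's level on 3 arrays only, rose by 1.06 ± 0.36 at 6 h as the mean of strains (0.0251), and 1454313_at passed in no comparison. The mean over all 7 Egfr probe sets went the other way from 1460420_a_at in 3 results. It was 0.99 in SJL at 3 h (adjusted p = 0.0057) against -0.02 ± 0.17, and -0.63 (0.0271) against 0.17 ± 0.14 for SJL and the other strains at 0 h. For the SJL response at 3 h against the other strains it was 1.21 (0.00768) against -0.08 ± 0.20. Which transcripts the probe sets detect was not tested, and no direction is given here for Egfr in SJL or C57.

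**Figure D3:**
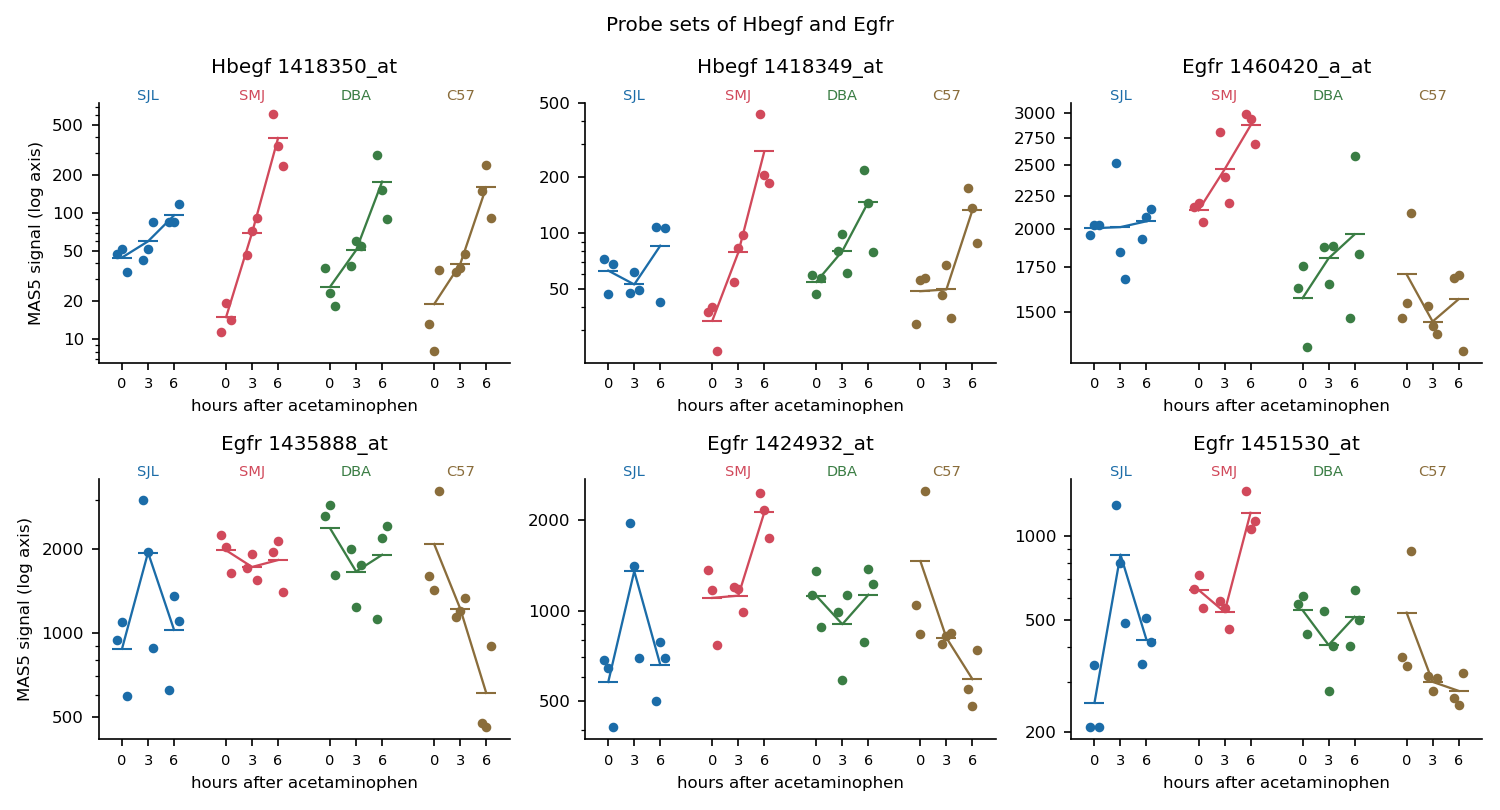
MAS5 signal (log axis) of both Hbegf probe sets and of 4 Egfr probe sets, by strain and hours after acetaminophen; points are mice and bars means of 3. Both Hbegf probe sets climbed furthest in SMJ, whereas the Egfr probe sets differed from each other, with 1451530_at rising in SJL at 3 h and 1435888_at falling in C57 by 6 h.

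Met encodes the HGF receptor. In DBA its signal (1434447_at) was 645, 674 and 867 at 0 h, 587, 679 and 681 at 3 h, and 430, 454 and 483 at 6 h. In SJL it was 496, 613 and 618 at 0 h, 277, 394 and 464 at 3 h, and 356, 462 and 544 at 6 h. DBA mice at 6 h and SJL mice at 3 h lay below every mouse of their strain at 0 h, while SJL at 6 h overlapped with 0 h. The SJL mice at 3 h were also those in which 5 of 7 Kupffer cell and macrophage markers fell. Lrat, Pdgfrb, Kdr, Mmp8 and Sox9 were the only stellate, endothelial, neutrophil and bile duct markers called in these mice. The part of any of these cells was not tested. In SMJ the mice went from 588, 591 and 615 to 352, 489 and 517 at 6 h, and in C57 from 483, 548 and 558 to 418, 425 and 435, again without overlap. Group means ran from 378 ± 94.7 in SJL at 3 h to 729 ± 120 in DBA at 0 h. At 6 h the 4 means lay between 426 and 456 and all 4 strains overlapped.

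As the mean of 4 strains Met fell by 0.44 on the log2 scale at 6 h (SE 0.08, adjusted p = 0.000146), and its change of -0.25 ± 0.08 at 3 h did not pass (0.065). That 3 h change passed when SJL_2, SJL_39 or SJL_44 or SMJ_103 was left out (adjusted p 0.0215 to 0.0488), and with the mean of both Met probe sets (-0.28, 0.0182). SJL_44 and SMJ_103 are 6 h mice, and without either the change stayed at -0.25 and only its p moved. The change from 3 h to 6 h, -0.19 ± 0.08 (0.122), passed without SJL_40 (-0.24, 0.0284). By strain it fell by 0.63 in SJL at 3 h (SE 0.16, adjusted p = 0.0134) and by 0.66 in DBA at 6 h (SE 0.16, 0.00757). The SJL call was lost without SJL_1, SJL_4 or SJL_40 (0.0607 to 0.116) and with the mean of both probe sets (0.0684), and the DBA call without DBA_114 at 0 h (0.0564). In SMJ at 6 h the change of -0.42 ± 0.16 (0.0704) passed without SJL_39 or SJL_40 or SMJ_101 (0.0378 to 0.0481). The SJL mice are not in that comparison, and without either of them the change stayed at -0.42. The second Met probe set, 1422990_at, gave -0.31 ± 0.10 at 3 h (adjusted p = 0.0723) and -0.29 ± 0.10 at 6 h (0.0334). The 6 h change was not shown to differ between strains (F = 0.93, adjusted p = 0.672). At 0 h 1422990_at differed between strains (F = 14.4, adjusted p = 0.000242) and 1434447_at was not called (F = 2.70, 0.161).

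Promoter sequences were at hand for 5 of the 8 genes, from RefSeq on GRCm38.p6, as 7 windows of 250 bases before to 50 bases after a start site. The 3 that hold a searched motif are printed here and with Errfi1 and Ccnl1 below. The Met window, chr6:17463707-17464006 on the plus strand, is shown because Met was the gene that fell. Its capitals mark an E-box (CACGTG), the core bound by MYC, 126 bases before the start, and an AP-1 motif (TGANTCA) 54 bases before it.
Met: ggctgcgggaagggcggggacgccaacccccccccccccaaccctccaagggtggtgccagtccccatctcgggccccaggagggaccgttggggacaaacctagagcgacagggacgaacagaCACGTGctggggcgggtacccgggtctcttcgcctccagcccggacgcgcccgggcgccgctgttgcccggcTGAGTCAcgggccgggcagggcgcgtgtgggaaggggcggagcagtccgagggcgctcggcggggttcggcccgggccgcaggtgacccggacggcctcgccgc
Searched on both strands, CACGTG was in 7.15% and TGANTCA in 7.81% of 32851 RefSeq windows of this length. A CRE (TGACGTCA), in 1.79% of windows, was found in 1 window of Errfi1 and in that of Ccnl1, and a STAT motif (TTCNNNGAA), in 8.30%, in none of the 7. The 2 Hgf windows, the Egfr window and the other Errfi1 window held none of the 4 motifs. CRE and AP-1 motifs share letters but no match here overlapped another.

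Errfi1 (1416129_at) stood at 1627, 4799 and 8129 in DBA at 0 h, at 10953, 11298 and 11326 at 3 h, and at 10406, 10462 and 10731 at 6 h. In SJL the mice were at 8166, 9292 and 11571 at 0 h, 7807, 10706 and 11290 at 3 h, and 10599, 10847 and 11187 at 6 h. DBA was apart only through its 0 h mice, whose mean of 4852 ± 3251 lay below the 8986 to 12980 of the other 11 groups. In SMJ the signal went from 7977, 8727 and 10253 to 12789, 12997 and 13153 at 6 h, and in C57 from 8525, 9419 and 9438 to 11508, 11851 and 12188. At 6 h every SMJ and C57 mouse was above every mouse of its strain at 0 h, and SJL overlapped.

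As the mean of 4 strains Errfi1 rose by 0.53 ± 0.15 at 3 h (adjusted p = 0.0248) and by 0.62 ± 0.15 at 6 h (0.00156). By strain the call was made in DBA alone, with 1.49 ± 0.29 at 3 h (0.00438) and 1.40 ± 0.29 at 6 h (0.00204). All strains share this SE, to which the DBA mice at 0 h gave a log2 SD of 1.18. In the other groups the SD was 0.02 to 0.29. Every SMJ and C57 mouse at 3 h and 6 h lay above 0 h, so no call there does not show that a rise was absent. Over SJL, SMJ and C57, a mean taken after the DBA values were seen, the change was 0.22 at 3 h (adjusted p = 0.574) and 0.37 at 6 h (0.117). Quantile normalization gave 0.38 and 0.30 (adjusted p = 0.143 and 0.141), and a fit to the arrays of 0 h and 3 h alone gave 0.0856 at 3 h. Across all alternatives the adjusted p ran from 0.0173 to 0.574 at 3 h and from 0.000912 to 0.141 at 6 h.

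The DBA values rested on single mice in size. Without DBA_113 the DBA change was 0.84 at 3 h and 0.75 at 6 h (adjusted p = 0.00937 and 0.00618), and the 6 h change in SMJ of 0.54 then passed (0.0126 against 0.216). Without DBA_114 it was 2.00 and 1.91, and the response then differed between strains at 3 h (F = 14.4, adjusted p = 0.00332) and 6 h (F = 10.97, 0.00694). With all mice those tests gave F = 4.89 (adjusted p = 0.152) and F = 3.33 (0.195). Before dosing the strains differed in Errfi1 (F = 8.44, adjusted p = 0.00402), which a fit to the 0 h arrays alone did not call (0.149). The second probe set, 1419816_s_at, rose by 0.55 ± 0.16 at 3 h (0.0359) and 0.52 ± 0.16 at 6 h (0.0152).

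The 3 genes whose 12 group means were most like those of Errfi1 were Per1, a core gene of the circadian clock (r = 0.945), Sgk1, a glucocorticoid-induced kinase (r = 0.928), and Igfbp1, a fasting-induced binding protein for insulin-like growth factors made by hepatocytes (r = 0.926). In the DBA mice at 0 h, Per1 stood at 4.35 (DBA_113), 104 (DBA_114) and 41.0 (DBA_115), Sgk1 at 230.7, 352 and 336, and Igfbp1 at 1915, 7669 and 3086, in the same order of mice. The mouse with the lowest Errfi1, DBA_113, had the lowest signal of all 3 genes. Each r is over 12 means from the same 36 arrays, chosen as the highest of all genes tested, and is given as a description.

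**Figure D4:**
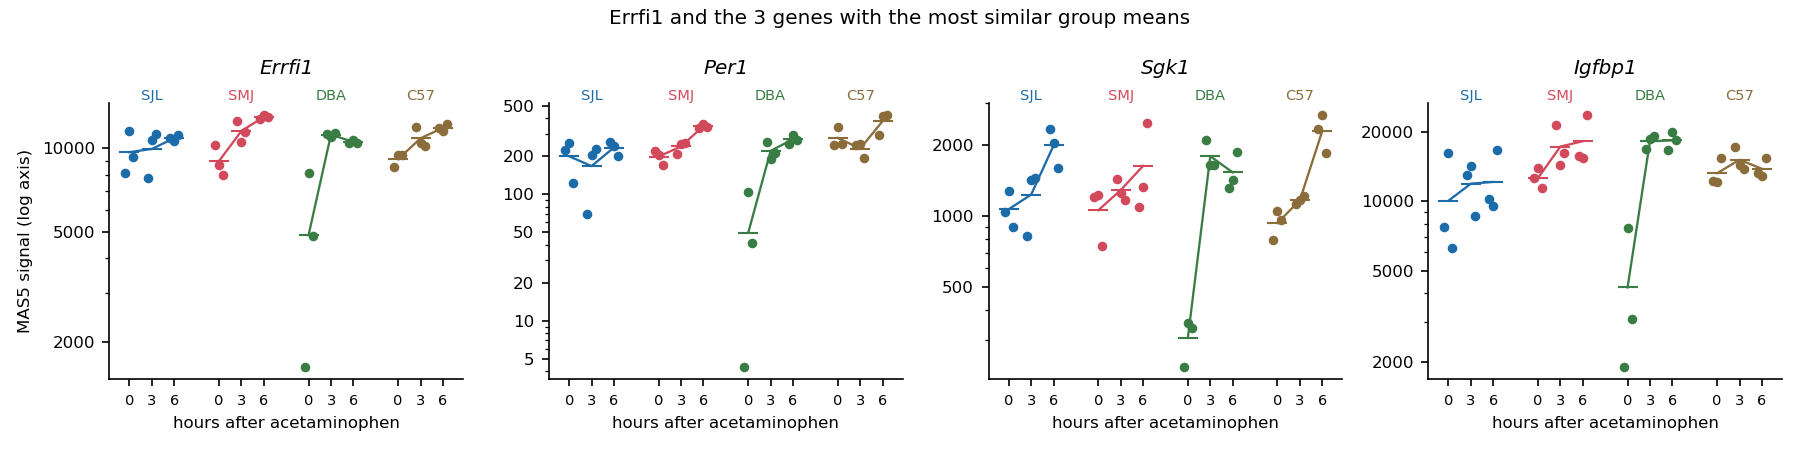
MAS5 signal (log axis) of Errfi1 and of Per1, Sgk1 and Igfbp1, the 3 genes with the most similar group means, by strain and hours after acetaminophen; points are mice and bars means of 3. The DBA mice at 0 h lay low for all 4 genes, down to 4.35 for Per1 and 1627 for Errfi1.

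The Errfi1 window at chr4:150854820-150855119 on the plus strand is printed because it and the window of Ccnl1, a gene that also rose, were those with a CRE. The capitals mark the CRE, which begins 51 bases before the start.
Errfi1: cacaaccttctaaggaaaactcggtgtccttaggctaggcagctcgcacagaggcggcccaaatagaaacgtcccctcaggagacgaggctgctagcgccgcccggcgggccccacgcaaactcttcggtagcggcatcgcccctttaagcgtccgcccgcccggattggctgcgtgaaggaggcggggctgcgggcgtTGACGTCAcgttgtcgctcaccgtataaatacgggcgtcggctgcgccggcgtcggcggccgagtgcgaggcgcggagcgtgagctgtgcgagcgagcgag
A match of letters does not show that a factor was bound, and binding was not measured.

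Myc encodes the transcription factor MYC. In SJL its signal (1424942_a_at, the only probe set) was 66.6, 87.9 and 183 at 0 h, 380, 446 and 908 at 3 h, and 1007, 1032 and 1033 at 6 h. In DBA it was 67.9, 75.4 and 87.2 at 0 h, 300, 404 and 404 at 3 h, and 500, 563 and 660 at 6 h. Both strains began low and moved upward with no overlap between the 3 times. In SMJ it went from 250, 263 and 368 through 519, 628 and 936 to 1272, 1441 and 1578, and in C57 from 164, 239 and 371 through 365, 530 and 548 to 768, 1011 and 1150. Here too the 3 times were apart, except that 1 C57 mouse at 0 h lay above the lowest at 3 h.

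Myc rose by 1.68 ± 0.16 at 3 h (adjusted p = 4.15e-08) and by 2.60 ± 0.16 at 6 h (2.03e-12) as the mean of 4 strains, about 6.06-fold at 6 h. The 3 h change was 2.36 ± 0.32 in SJL (adjusted p = 2.25e-05) and 2.22 ± 0.32 in DBA (8.94e-05), and those of 1.21 ± 0.32 in SMJ and 0.95 ± 0.32 in C57 did not pass (0.159 and 0.387). At 6 h it was 3.29 in SJL, 2.86 in DBA, 2.29 in SMJ and 1.97 in C57, each with an SE of 0.32 and an adjusted p of 0.000179 or less. The size of the 6 h change was not shown to differ between strains (F = 3.33, adjusted p = 0.195), nor that of the 3 h change (F = 4.85, 0.155). The latter passed only when SJL_2 at 0 h was left out (F = 8.17, adjusted p = 0.0489).

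Before dosing, Myc differed between strains (F = 16.4, adjusted p = 9.94e-05). The means were 76.9 ± 9.73 in DBA, 112 ± 61.8 in SJL, 258 ± 105 in C57 and 294 ± 64.6 in SMJ (SD, n = 3). Every DBA mouse was below every C57 and SMJ mouse, every SJL mouse was below every SMJ mouse, and neighbours in that order overlapped. By 6 h the order was DBA with 574 ± 80.5, C57 with 976 ± 194, SJL with 1024 ± 14.7 and SMJ with 1431 ± 154, in which C57 and SJL overlapped. SJL against the other strains at 0 h was -0.76 ± 0.26 (adjusted p = 0.0562). It passed under quantile normalization (0.0491) and without SJL_2, SJL_39 or SJL_42 or C57_181 (0.00803 to 0.0456). SJL_39 and SJL_42 are 3 h mice, and without either the difference stayed at -0.76. The genes most like Myc over the group means were Ppp2r2a (r = 0.967), a subunit of protein phosphatase PP2A, and Rhob and Jun (both r = 0.946), a small GTPase and an AP-1 subunit. They were chosen for that likeness, so their changes carry no test.

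Ccnd1 encodes cyclin D1. In SJL its signal (1448698_at) was 98.5, 107 and 110 at 0 h, 83.7, 98.5 and 125 at 3 h, and 109, 212 and 219 at 6 h. In SMJ it was 72.6, 109 and 121 at 0 h, 83.1, 128 and 145 at 3 h, and 153, 187 and 190 at 6 h. All SMJ mice at 6 h lay above those at 0 h, while in SJL 1 mouse at 6 h stayed within the 0 h range. DBA went from 96.04, 109 and 126 to 82.6, 91.0 and 138, and C57 from 128, 129 and 197 to 128, 167.7 and 190, both with overlap.

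As the mean of 4 strains Ccnd1 changed by 0.02 ± 0.13 at 3 h (adjusted p = 0.957) and rose by 0.38 ± 0.13 at 6 h (0.0251). The 6 h call was lost without SJL_44 or SJL_45, SMJ_56 or DBA_166 (adjusted p 0.0509 to 0.0567), and with the mean of its 3 probe sets (0.0763). The strain values were 0.82 ± 0.26 in SMJ (0.0236), 0.70 ± 0.26 in SJL (0.109), 0.11 ± 0.26 in C57 (0.847) and -0.11 ± 0.26 in DBA (0.84), and they were not shown to differ (F = 3.06, adjusted p = 0.223). The SMJ call was lost without SMJ_56, SMJ_102 or SMJ_103 (0.0675 to 0.136), and the SJL value passed at 1.02 without SJL_48 (0.0203). From 3 h to 6 h the change was 0.36 ± 0.13 (0.0594), which passed without SJL_39 or SJL_48, SMJ_98, DBA_160 or DBA_168 or C57_237 (0.0134 to 0.0482), and over SJL, SMJ and C57 alone (0.51, 0.0241). The SMJ call was also lost with the mean of all probe sets (0.0757). Probe sets 1417420_at and 1417419_at gave 0.26 ± 0.13 and 0.51 ± 0.33 at 6 h (adjusted p = 0.149 and 0.266). The 12 group means ran from 100.9 to 180, and their spread of up to 61.6 covered most neighbours in that order.

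Ccnl1 encodes cyclin L1, a cyclin that works with CDK11 in transcription and splicing. In C57 its signal (1423622_a_at, the only probe set) was 405, 450 and 501 at 0 h, 815, 830 and 845 at 3 h, and 1819, 2034 and 2520 at 6 h. In DBA it was 346, 350 and 398 at 0 h, 1104, 1137 and 1357 at 3 h, and 1504, 1656 and 1773 at 6 h. The 3 times were apart in both strains. SJL went from 468, 481 and 532 through 847, 1006 and 1020 to 936, 1307 and 1498, and SMJ from 454, 456 and 645 through 1019, 1081 and 1230 to 1206, 1337 and 1540. In these strains all mice at 3 h and 6 h lay above 0 h, but 3 h and 6 h overlapped.

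Ccnl1 rose by 1.16 ± 0.08 at 3 h (adjusted p = 9.34e-11) and 1.77 ± 0.08 at 6 h (7.01e-15) as the mean of 4 strains. At 3 h the change was 1.71 in DBA (9.22e-08), 1.11 in SMJ (0.00105), 0.95 in SJL (0.000232) and 0.88 in C57 (0.00794), each with an SE of 0.16. The C57 call was lost without C57_180 or C57_226 (0.0553 and 0.0549). At 6 h it was 2.22 in C57, 2.16 in DBA, 1.40 in SMJ and 1.31 in SJL, each with an SE of 0.16 and an adjusted p of 2.99e-06 or less, and these differed between strains (F = 9.45, adjusted p = 0.0118). That call held without any single mouse (adjusted p up to 0.027) and under every alternative (up to 0.0404). The SJL response at 6 h was -0.62 ± 0.18 against the mean of the others (adjusted p = 0.137). From 3 h to 6 h the gene rose by 0.61 ± 0.08 (6.73e-06).

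Levels of Ccnl1 at 6 h were ordered SJL with 1247 ± 285, SMJ with 1361 ± 168.5, DBA with 1644 ± 135 and C57 with 2124 ± 359. Every C57 mouse was above every other mouse at 6 h, every DBA mouse above every SJL mouse, and the other neighbours overlapped. At 0 h every DBA mouse was below all mice of the other strains, and the F test did not pass (3.84, adjusted p = 0.0707); without SJL_45 at 6 h it did (4.79, 0.0395). The genes most like Ccnl1 were Adamts1, a secreted protease (r = 0.966), and the immediate early genes Ier2 (r = 0.966) and Junb (r = 0.960). The Ccnl1 window, chr3:65958200-65958499 on the minus strand, is printed as the second with a CRE, in capitals, which begins 18 bases before the start.
Ccnl1: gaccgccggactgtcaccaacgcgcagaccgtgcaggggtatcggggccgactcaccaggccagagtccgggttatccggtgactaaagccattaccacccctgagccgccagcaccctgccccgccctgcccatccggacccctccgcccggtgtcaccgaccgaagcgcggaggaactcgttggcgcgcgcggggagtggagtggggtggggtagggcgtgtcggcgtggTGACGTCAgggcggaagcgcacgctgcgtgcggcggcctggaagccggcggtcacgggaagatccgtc

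For the other members the closest patterns were Rps10, Larp7 and Rpl38 for Hbegf (r = 0.960, 0.948 and 0.945), Mad2l2, Bbc3 and Mprip for Hgf (0.926, 0.902 and 0.891), Kyat1, Fetub and Apobec2 for Egfr (0.961, 0.936 and 0.935), Cpox, Tmem230 and Abhd18 for Met (0.949, 0.924 and 0.914), and Kcnj4, Pkp2 and Tmem44 for Ccnd1 (0.860, 0.819 and 0.8165). Among the 8 genes themselves, Myc and Ccnl1 were the most alike over the 12 means (r = 0.857), and Myc and Met the most opposed (r = -0.743). All these r values come from the same arrays and carry no test.

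Genes around the 8 were taken from 9 lists, whose counts stand beside 12.5% of all genes called higher and 20.1% lower at 6 h, and 3.10% and 3.96% at 3 h. The lists, too, were chosen with earlier results of these data known, so their counts are not a test. Beside Hbegf and Egfr, 11 other ligands, sheddases and receptors of the EGF receptor family were tested; by 6 h 4 rose and 1 fell, and the list median was 0.07. Erbb3, a partner receptor, fell by 1.22 (SE 0.10, adjusted p = 3.02e-10), from means of 1095 to 1941 at 0 h in the 4 strains to 457 to 868 at 6 h. The ligands Nrg4 and Btc rose by 1.52 ± 0.23 (9.26e-06) and 1.36 ± 0.19 (3.43e-06). Nrg4 went from 87.2 ± 45.6 to 1220 ± 363 in SMJ and from 460 ± 216 to 275 ± 86.8 in C57, and by limma the change was 3.90 ± 0.46 in SMJ (1.26e-06) and -0.64 ± 0.46 in C57 (0.433). The 6 h change differed between strains (F = 17.9, adjusted p = 0.000611), in a test added after these values were seen. At 3 h 0 of these rose and 2 fell.

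Of 12 genes listed around HGF activation and MET signalling, 2 rose and 2 fell by 6 h (median 0.11). At 3 h 0 were called by limma, with 0 at an unadjusted p under 0.05. Sos1, the exchange factor that couples such receptors to RAS, fell by 0.96 (SE 0.08, adjusted p = 1.11e-09). Plat, the tissue plasminogen activator, rose by 0.89 ± 0.20 (0.00101), and Ptpn11, the phosphatase SHP2, rose by 0.22 ± 0.07 (0.0113). Of 12 feedback genes of receptor tyrosine kinases, the class Errfi1 belongs to, 7 rose and 1 fell by 6 h (median 0.36), where 12.5% and 20.1% of all genes did, and 2 rose and 1 fell by 3 h. Dusp6, the ERK phosphatase, rose by 2.40 ± 0.15 (1.48e-12), and Spry4, a Sprouty inhibitor, by 1.11 ± 0.12 (5.38e-08), while Socs4 fell by 0.53 (SE 0.07, 1.19e-06). Dusp6 means went from 163 ± 77.3 to 868 ± 140 in SJL, from 415 ± 82.4 to 2438 ± 276 in DBA, from 295 ± 64.8 to 2135 ± 616 in C57 and from 1412 ± 319 to 4552 ± 439 in SMJ.

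Of 11 priming cytokines, receptors and their factors, 6 rose by 6 h and none fell (median 0.29), and 1 rose by 3 h. Il6 was among those higher by 6 h (1.55 ± 0.45, adjusted p = 0.00804 by limma). Tnf was not called (-0.42 ± 0.34, 0.377). The oncostatin M receptor gene Osmr rose by 1.58 ± 0.13 (adjusted p = 7.66e-10), Tnfrsf1a, a TNF receptor, by 0.62 ± 0.08 (4.1e-07), and Stat3 by 0.75 ± 0.11 (5.99e-06). Stat3 means at 6 h were 2386 ± 258 in SJL, 2491 ± 342 in SMJ and 2115 ± 550 in DBA, all called higher than at 0 h, and 1249 ± 134 in C57 beside 1168 ± 129 at 0 h (adjusted p = 0.838). At 3 h it was called in SJL, with 0.98 ± 0.22 (0.00448). By limma the strains were not shown to differ in the 6 h change (F = 4.83, adjusted p = 0.0942) or the 3 h change (F = 5.05, 0.141).

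Around Myc, 12 partners and rivals split, with 3 higher and 4 lower by 6 h (median 0.11), and 1 fell by 3 h. Mycl fell by 1.56 (SE 0.30, adjusted p = 0.000218). Of the MAX partners, Mxd4 fell by 0.46 (SE 0.10, 0.000682) and Mxd1 rose by 0.60 ± 0.16 (0.00396). Of 15 growth genes known as MYC targets, 9 rose and none fell by 6 h (median 0.26), where 12.5% of all genes rose, and 5 rose by 3 h, where 3.10% did. Their examples were the nucleolar genes Nolc1 with 0.71 ± 0.08 (1.05e-07) and Gnl3 with 0.63 ± 0.07 (1.97e-07), and Eif4a1, a helicase of translation initiation, with 0.51 ± 0.06 (3.33e-07).

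Around Ccnd1, 2 of 12 G1 cyclins, kinases and inhibitors rose and 4 fell by 6 h (median -0.20), and at 3 h 2 rose and 1 fell. Cdkn1a, the inhibitor p21, rose by 1.61 ± 0.26 (adjusted p = 1.86e-05), whereas Cdk4 fell by 0.46 (SE 0.09, 0.000157) and Cdkn1b, the inhibitor p27, by 0.63 (SE 0.13, 0.000292). Cdkn1a in DBA went from 309 ± 287 at 0 h to 3309 ± 319 at 6 h. Of 15 S phase and mitosis genes, 2 rose by 6 h, Pcna by 0.63 ± 0.06 (7.58e-09) and Mcm5 by 0.90 ± 0.20 (0.000715), with a median of 0.12. The mitotic cyclin Ccna2 changed by -0.58 ± 0.27 and did not pass (0.104). Around Ccnl1, 6 of 15 transcription cyclins, splicing kinases and splicing factors rose and 1 fell by 6 h (median 0.18), and 5 rose and 1 fell by 3 h. Among them Clk4, a kinase of splicing factors, rose by 0.72 ± 0.09 (7.64e-07), and the splicing factors Srsf3 and Srsf5 by 0.54 ± 0.07 (2.81e-06) and 0.36 ± 0.05 (1.3e-05). The median over all genes tested was -0.05 at 6 h, and nothing particular to a list is claimed from its median.

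**Figure D5:**
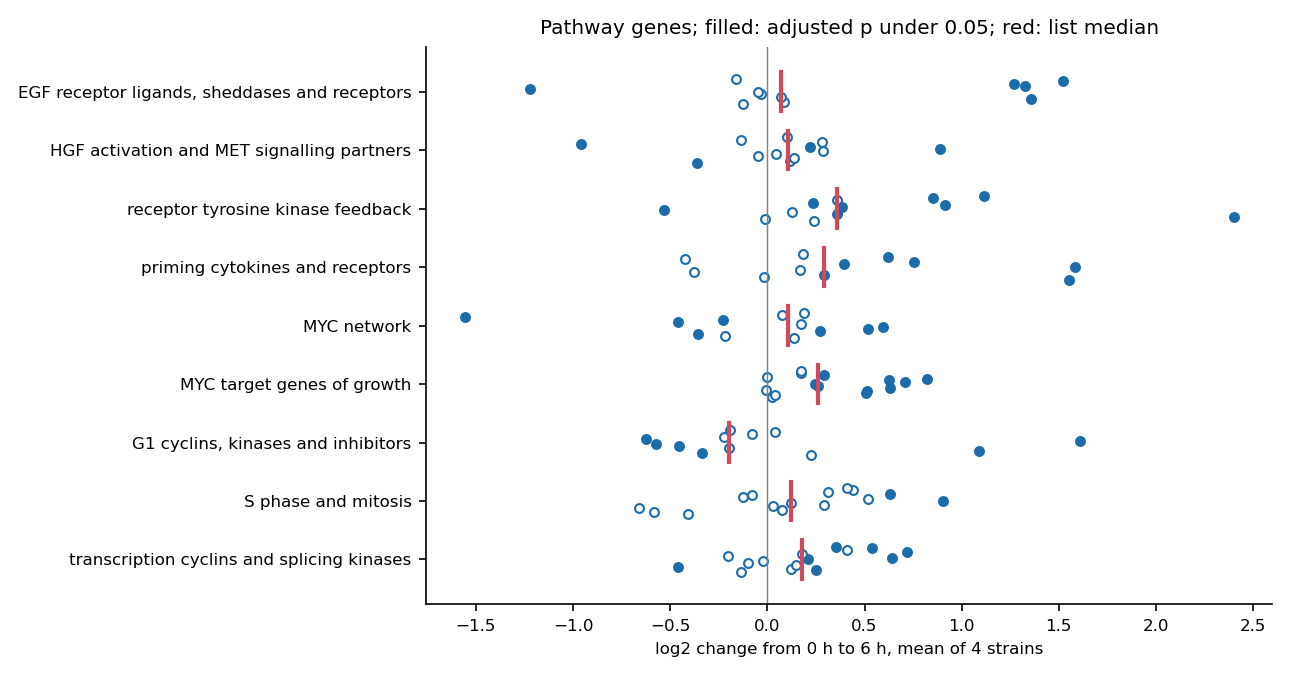
Log2 change by 6 h, averaged over 4 strains, of each tested gene in 9 lists around the 8 growth genes; each point is a gene, filled where the adjusted p is under 0.05, and red bars are list medians. Dusp6 lies furthest to the right at 2.40 and Mycl furthest to the left at -1.56.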

How the data were processed

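Each array carried the liver RNA of 1 mouse. The deposited table holds 1 intensity per probe set and array, made with MAS5 per the submitters' processing notes. Its version is not given in the sources used here. Every array had a trimmed mean (2% trim) of 150.001. Mouse numbers differ between groups and pair no mice. Precision is limited by there being 3 arrays a group.

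Of 45101 probe sets, 64 are controls, 34945 have 1 symbol in GEO's platform annotation, 932 several and 9160 none. Log2 was taken after adding 2.77, the 10th percentile of all signals. A gene was tested where at least 3 arrays exceeded the median signal of 30.8. Its probe set of highest mean log2 signal stood for it, with _s_ and _x_ types passed over where another existed. Fold changes are on this offset scale and understate those of low signals.

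Group means of all 12 groups were fitted to 13981 genes with limma 3.58.1 (lmFit, eBayes) in R 4.3.3, with 24 residual degrees of freedom. The 17 comparisons were two-sided, with Benjamini-Hochberg adjustment and a threshold of 0.05. Values of single probe sets come from a fit of all that passed the filter. The code was tested on simulated data. Alternatives were other offsets (1 and 16), quantile and 75th percentile scaling, no filter, every probe set, the mean of a gene's probe sets, only the arrays compared, and each array left out. Leaving out an array outside a comparison keeps its log2 change and alters only the shared estimate of spread and the adjustment.

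Named were the 8 members, the 3 genes of smallest p at 6 h in each of 9 lists, and the 3 genes whose 12 group means were most like each member's. Il6 and Tnf are also given because the introduction names their proteins. Members and lists were chosen with earlier results of these data known. Promoters are from RefSeq, GRCm38.p6.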

Additional observations from a re-analysis of the deposited data

Results flagged for a closer look

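The change in Hbegf from 0 h to 6 h differed between the 4 strains (F = 7.48, adjusted p = 0.0274 by limma). It was 2.85 in SMJ, 1.39 in C57, 1.28 in DBA and 0.34 in SJL on the log2 scale. The call was lost when SJL_1, SJL_4, SJL_45, SMJ_58 or SMJ_101 was left out (adjusted p 0.0539 to 0.0887) and in a fit of the 0 h and 6 h arrays alone (0.0647).

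The change in Ccnl1 from 0 h to 6 h also differed between strains (F = 9.45, adjusted p = 0.0118 by limma). It was 2.22 in C57, 2.16 in DBA, 1.40 in SMJ and 1.31 in SJL. Groups of 3 mice were not tested for single mice far from the others.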

How the results depend on the processing

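Of 6144 values of single genes under 10 alternatives or with 1 of 36 arrays left out, 6052 kept their side of the threshold, 58 of them uncalled values that changed sign, 48 lost the call and 41 gained one. In the other 3, Egfr turned with the mean of its 7 probe sets, to 0.99 in SJL at 3 h, -0.63 for SJL against the other strains at 0 h and 1.21 for the SJL response at 3 h. The pancreas covariate and the mean of SJL, SMJ and C57 were chosen after seeing the data. No paired analysis was possible because no groups share mouse numbers.

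With the mean of all probe sets, the number of the 8 genes called was 5 at 3 h, 4 between strains at 0 h, and 1 each for SJL at 0 h and for its 3 h and 6 h responses. With only the arrays compared it was 0 at 3 h in SJL, SMJ and C57, 2 in DBA and 1 in C57 at 6 h, and 1 each for strain differences at 0 h and in the 6 h response. Quantile normalization gave 1 for SJL at 0 h. With 1 array left out the count ran from 3 to 5 for 3 h to 6 h, 3 to 5 in DBA at 6 h, 0 to 1 in C57 at 3 h, 0 to 1 and 1 to 3 for strain differences in the 3 h and 6 h responses, and 0 to 1 for SJL at 0 h and in its 3 h response.

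Testing every probe set raised the calls over the array from 987 to 1726 at 3 h, 4567 to 7834 at 6 h and 2300 to 3531 from 3 h to 6 h. By strain it raised them from 1388 to 2167 and 982 to 1660 in SJL at 3 h and 6 h, 2921 to 4691 in SMJ at 6 h, 210 to 418 and 1731 to 2773 in DBA, and 1402 to 2330 in C57 at 6 h. For strain differences it raised them from 3651 to 6196 at 0 h and 734 to 1114 in the 6 h response, and for SJL from 1689 to 2726, 644 to 1026 and 55 to 121. More features were tested there. With only the arrays compared, and so fewer samples, the calls were 6 and 289 in SJL, 0 (of 24) and 1041 in SMJ, 94 and 498 in DBA, 11 (of 39) and 263 in C57, 1.19% of genes (not 1.97%) for the 3 h strain difference and 24 for the SJL response at 6 h. That last count was 17 without the filter and 11 with the pancreas covariate, and the cause was not tested.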
